A study of Mus musculus and Homo sapiens with 4 samples.

Results

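The trefoil, anterior gradient and mucin genes examined here were TFF1, TFF2 and TFF3, AGR2, and the mucin genes MUC1, MUC5B, MUC13, MUC16 and MUC20. The members were taken by gene symbol, with the entry of highest mean RPKM standing for a symbol, which gave 9 entries out of the 25932 in the deposited values of the human libraries. RPKM is the number of reads divided by entry length and by how many reads of the library were mapped, so that levels of different genes are compared per length. Total RNA of the prostate cancer line VCaP (passages 5 to 6) and of VCaP ERα (passages 4 to 5), by its label the same line made to overexpress oestrogen receptor alpha (ERα), was sequenced after removal of ribosomal RNA. Both were grown in DMEM with serum, the sample labels name no hormone treatment, and neither the labels nor the study's methods say whether VCaP ERα is 1 clone. Each condition had 1 library, so no value has an error, no difference has a replicate check and no test between conditions was made. The series also holds 1 library each of wild-type and NEAT1 knockout (KO) mouse fibroblast lines from E13.5 embryos, which are not part of this comparison.

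Trefoil factors are small secreted peptides, each built around cysteine-rich trefoil domains that resist digestion. Mucous cells of the stomach and gut release them together with mucins, and they are known for protecting and repairing epithelia. AGR2 is an endoplasmic reticulum protein of the disulphide isomerase family that helps mucins to fold, and mucins are long, heavily O-glycosylated glycoproteins that are either secreted into a gel or anchored in the cell membrane. TFF1 is a classical oestrogen-induced gene of breast cancer cells, and AGR2 is known to respond to both oestrogen and androgen.

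The libraries were first compared on ESR1, the gene of ERα, and on marker genes of the labelled cell type. ESR1 had 15.7 RPKM in the VCaP-labelled library against 209 RPKM in VCaP ERα. The 8 prostate luminal markers described here (KLK2, KLK3, TMPRSS2, ACPP, FOLH1, SLC45A3, HOXB13 and ERG) summed to 12.4 RPKM in the VCaP-labelled library and to 1716 RPKM in VCaP ERα, and all 8 were higher in VCaP ERα. FOLH1 was listed at 0 in the VCaP-labelled library, where KLK2 had 0.0264 RPKM, HOXB13 0.0479 RPKM and ERG, which VCaP cells are known to express from a gene fusion, 0.0764 RPKM. Of the 8 markers 3 reached 1 RPKM there, at most 8.18 RPKM for TMPRSS2, so that several defining markers were near or at 0 in a library labelled as a prostate line. These markers go against the label of that library, and whether it came from VCaP cells is in doubt. A luminal breast list of 6 genes had 5 with an entry of their own and summed to 123 RPKM in the VCaP-labelled library against 6.92 RPKM in VCaP ERα. Only 2 of the 5 were lower in VCaP ERα, GATA3 (90.5 and 0.633 RPKM) and TRPS1 (30.7 and 0.0354 RPKM), and they carried the sum. The other 3 were higher, AZGP1 with 1.55 and 6.18 RPKM and ANKRD30A and SCGB2A2 near or at 0 in both libraries, and the median log2 ratio of the 5 was 0.042. Entries at 0 numbered 8757 in the VCaP-labelled library and 3607 in VCaP ERα, whereas 11770 and 11938 reached 1 RPKM. The log2 ratio of VCaP ERα over VCaP, with 1 added to each value, had a median of -0.59 over the 9754 entries that reached 1 RPKM in each library. Every direction below is drawn against this library labelled VCaP. With 1 library per condition, ERα overexpression and any other difference between the cultures cannot be told apart.

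The trefoil genes TFF1 and TFF3 and the mucin gene MUC1 were much lower in VCaP ERα than in the library labelled VCaP, whereas AGR2 was higher. In the VCaP-labelled library the order of levels was TFF1, TFF3, AGR2, MUC1, MUC20, MUC5B and MUC16, with TFF2 and MUC13 listed at 0. In VCaP ERα the order was AGR2, TFF3, TFF1, MUC20, TFF2, MUC5B, MUC1, MUC13 and MUC16. No replicate spread exists by which neighbours in either order could be told apart. Of the 9 genes, 3 had a log2 ratio below -2 (TFF1, TFF3 and MUC1), against 6.56% of all entries, and 1 had a log2 ratio above 2 (AGR2), against 2.27% of all entries. The other 5 genes lay between these limits. Because low entries cannot easily pass them, the share of entries below -2 was 12.2% among the 13954 entries with at least 1 RPKM in either library, a level that 6 of the 9 genes reached. The median log2 ratio of the 9 genes was -1.28 and that of all entries was 0. Restricted to the level of 1 RPKM in either library, it was -2.51 for the 6 genes and -0.50 for all 13954 entries. This level was reached by 6 of the 9 genes in the VCaP-labelled library and by 4 in VCaP ERα. Some genes thus passed it only in the library where they were higher.

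**Figure D1:**
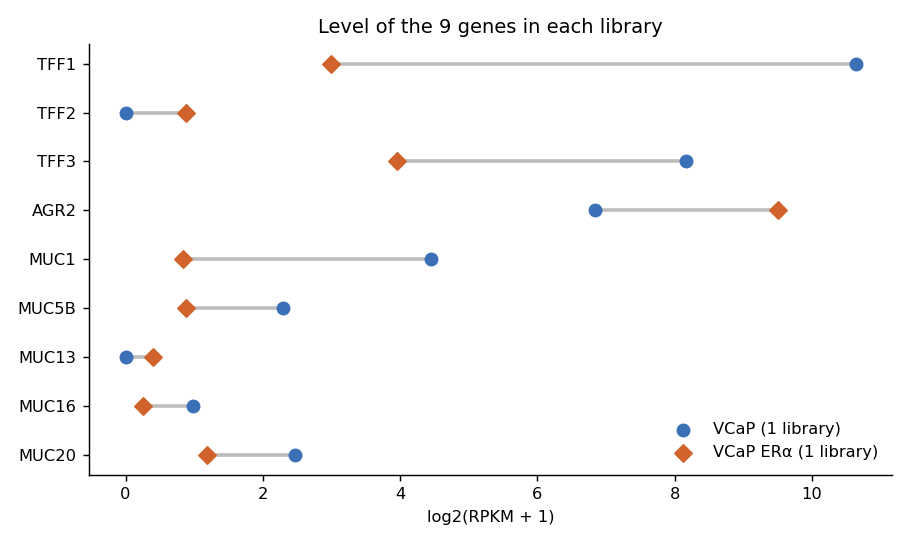
Level of each of the 9 genes as log2(RPKM + 1), with a blue circle for the library labelled VCaP and an orange diamond for the VCaP ERα library (1 library each, no error). TFF1, TFF3 and MUC1 lie far to the left in VCaP ERα, AGR2 lies to the right, and the other genes stay low in both libraries.

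The split between higher and lower entries depended on scaling. Without it, 588 entries were above 2 and 1701 below -2, so that 25.7% of these entries were higher in VCaP ERα. When the median of expressed entries was set to 0 (centring), 1238 were above 2 and 868 below -2 (58.8% higher). The 3 lower genes and the 1 higher gene named here stayed past the limits in both cases and after quantile normalization.

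TFF1 (chromosome 21, 42655460 to 42659713 in hg18) encodes the trefoil peptide of the gastric surface, and it also marks oestrogen-responsive breast cells. It had 1596 RPKM in the VCaP-labelled library, where it ranked 6 of all entries by level, and 7.0 RPKM in VCaP ERα, where it ranked 3994. Its level was thus 228-fold lower in VCaP ERα, the log2 ratio was -7.64, and only 5 entries had a lower log2 ratio. Relative to the median shift of expressed entries its log2 ratio was -7.05.

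TFF3 (chromosome 21, 42605232 to 42608775), the trefoil factor of intestinal goblet cells, showed the same direction with a smaller difference. It had 285 RPKM in the VCaP-labelled library against 14.5 RPKM in VCaP ERα, which is 19.7-fold lower, with a log2 ratio of -4.21 (-3.62 relative to the median shift). The balance within the family therefore turned. TFF1 had 5.59 times the level of TFF3 in the VCaP-labelled library, and TFF3 had 2.07 times the level of TFF1 in VCaP ERα. TFF1 made up 84.8% of the summed trefoil RPKM in the VCaP-labelled library and 31.3% in VCaP ERα. The sum itself was 1881 RPKM and 22.3 RPKM.

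TFF2 (chromosome 21, 42639536 to 42644176), the trefoil factor of gastric neck and duodenal gland cells, has its gene between those of TFF3 and TFF1. It was listed at 0 in the VCaP-labelled library and had 0.848 RPKM in VCaP ERα (log2 ratio 0.89). Both values were low, and no fold is given against a listed 0.

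AGR2 (chromosome 7, 16797960 to 16811133) was the only one of the 9 genes above the limit in VCaP ERα. It had 114 RPKM in the VCaP-labelled library (rank 340 by level) and 727 RPKM in VCaP ERα (rank 27), which is 6.38-fold higher. Its log2 ratio was 2.66, with 281 entries above it, and 3.25 relative to the median shift. AGR2 and the trefoil genes, which are often found together in mucous epithelia, changed places: TFF1 had 14.0 times the level of AGR2 in the VCaP-labelled library, whereas AGR2 had 104 times the level of TFF1 in VCaP ERα.

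**Figure D2:**
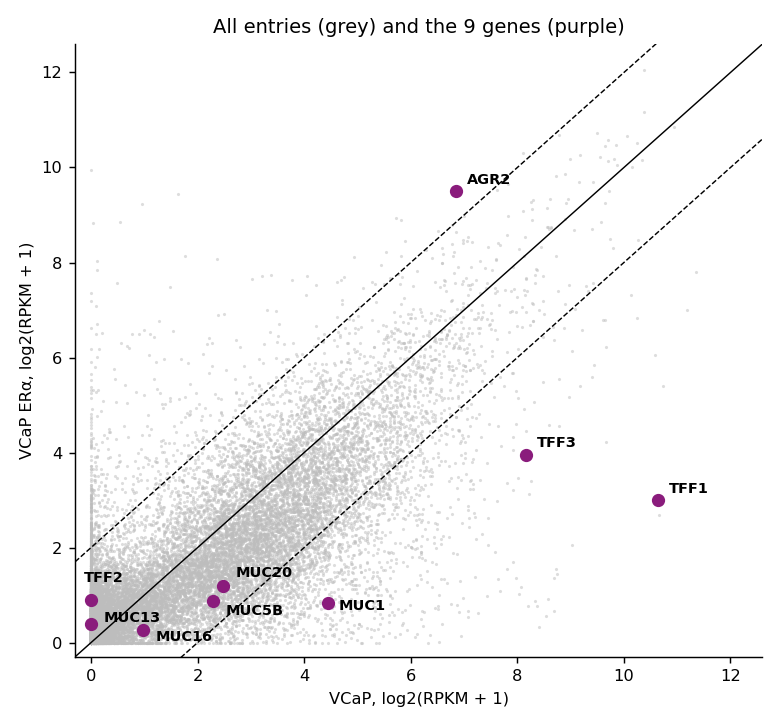
Level of every entry (grey) and of the 9 genes (purple) in the library labelled VCaP (horizontal) and VCaP ERα (vertical), both as log2(RPKM + 1), with the line of equality and dashed lines at log2 ratios of 2 and -2. TFF1, TFF3 and MUC1 lie below the lower dashed line and AGR2 above the upper one, while TFF2, MUC5B, MUC13, MUC16 and MUC20 lie between them.

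Of the 5 mucin genes, 4 were lower in VCaP ERα. The median log2 ratio was 0 over all entries and -0.59 over those with at least 1 RPKM in both libraries. Among the 5 mucin genes only MUC20 reached that level in both. The 5 summed to 30.2 RPKM in the VCaP-labelled library, most of it from MUC1, against 3.41 RPKM in VCaP ERα. MUC1 (chromosome 1, 153424924 to 153429324), the membrane mucin of most glandular epithelia and a widely used carcinoma antigen, had 20.8 RPKM in the VCaP-labelled library against 0.780 RPKM in VCaP ERα. This was 26.6-fold lower, with a log2 ratio of -3.61 (-3.02 relative to the median shift). A short further entry under the same symbol, 189 bp long and inside the gene, was listed at 0 in both libraries.

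MUC20, a membrane mucin that can bind the receptor MET, had 4.55 RPKM in the VCaP-labelled library against 1.28 RPKM in VCaP ERα (log2 ratio -1.28). Its gene (chromosome 3, 196933424 to 196950211) lies in a stretch with duplicated copies, so reads of such copies may have been shared with it. The entry that holds MUC5B, a gel-forming airway mucin, had 3.89 and 0.833 RPKM, a log2 ratio of -1.42. It also carries the symbol of MUC5AC, the gel-forming mucin of the gastric surface, and spans 112829 bp (chromosome 11, 1132474 to 1245302). Its reads therefore cannot be assigned to either gene. A separate short MUC5AC entry inside this span had 2.54 RPKM in the VCaP-labelled library against 1.16 RPKM in VCaP ERα.

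MUC16 (chromosome 19, 8820520 to 8953018), which carries the CA125 antigen, had 0.976 RPKM in the VCaP-labelled library against 0.194 RPKM in VCaP ERα. Its log2 ratio was -0.73, and -0.14 relative to the median shift. MUC13 (chromosome 3, 126106979 to 126136270), a membrane mucin of the gut, was listed at 0 in the VCaP-labelled library and had 0.315 RPKM in VCaP ERα (log2 ratio 0.40). With a pseudocount of 0.1 in place of 1, TFF2 and MUC13 also passed a log2 ratio of 2 (3.24 and 2.05), which rests on values below 1 RPKM, and MUC5B passed -2 (-2.10). At that pseudocount 16.3% of all entries were above 2 and 11.4% below -2.

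The genes beside the members were examined to see how far their differences extended along the chromosome. In the trefoil cluster, TFF1 and TFF3 flank TFF2, and the distance between the entries of TFF1 and TFF3 is 46685 bp. On the far side of TFF1, the serine protease gene TMPRSS3 lies 5355 bp away and had 0.560 RPKM in the VCaP-labelled library against 1.10 RPKM in VCaP ERα. Beyond it UBASH3A, a lymphocyte gene, was listed at 0 and had 0.553 RPKM. On the far side of TFF3, the cholesterol transporter gene ABCG1 had 13.2 and 2.22 RPKM, a log2 ratio of -2.14. AL355711, an entry between ABCG1 and TFF3, had 4.29 and 1.59 RPKM (-1.03). The entries around TFF1 and TFF3 thus differed in both directions, but each higher entry, TFF2 among them, had less than 1 RPKM in the VCaP-labelled library. ABCG1 had the lowest log2 ratio among those that are not trefoil genes.

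Beside AGR2 lies its paralogue AGR3, at a distance of 54422 bp, with 0.776 RPKM in the VCaP-labelled library against 6.97 RPKM in VCaP ERα. Its log2 ratio was 2.17, the same direction as that of AGR2, at a far lower level. TSPAN13, a tetraspanin gene 7274 bp away on the other side, had 27.2 and 67.3 RPKM (log2 ratio 1.28), and BZW2, a translation regulator gene farther out, had 12.3 and 5.94 RPKM (-0.94). Around MUC1, 10 of the 15 entries within 100 kb described here were lower in VCaP ERα, 4 were higher, and the short MUC1 entry was at 0 in both libraries. The median log2 ratio of the 15, some of them below 1 RPKM, was -0.49. It was 0 over all entries and -0.59 over those that reached 1 RPKM in each library. RAG1AP1 was the 1 entry among the 15 with a log2 ratio below -2 (-2.67). For MUC20 the direction was the opposite of its surroundings, since all 5 entries within 100 kb, MUC4 among them, were higher in VCaP ERα, each from less than 1 RPKM in the VCaP-labelled library. Beside MUC13, the integrin gene ITGB5 had 19.9 RPKM in the VCaP-labelled library against 2.74 RPKM in VCaP ERα (log2 ratio -2.48), while HEG1 on the other side was low in both at 0.365 and 0.425 RPKM (0.061).

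**Figure D3:**
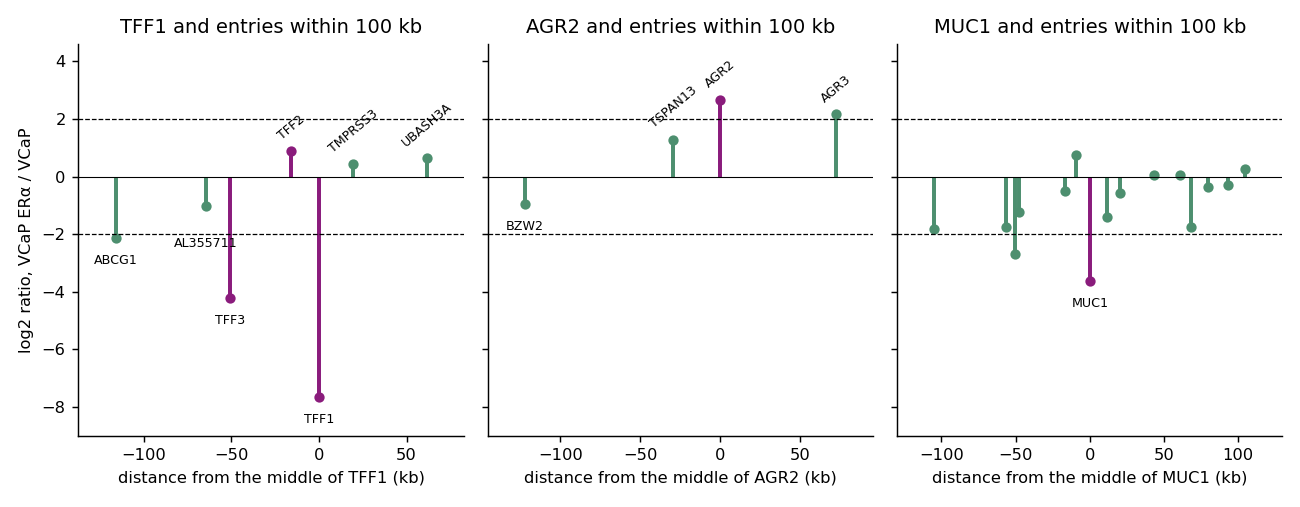
Log2 ratio of VCaP ERα over VCaP for TFF1, AGR2 and MUC1 and for the entries that reach within 100 kb of each, plotted by distance of their middle points in kb (members in purple, other entries in green, dashed lines at 2 and -2). TFF1 and TFF3 stand out below their neighbours, and AGR3 and TSPAN13 share the direction of AGR2. Most entries around MUC1 lie below 0. The median was 0 over all entries and -0.59 over those expressed in both libraries. The short MUC1 entry at 0 in both libraries is not drawn.

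Other mucin genes were mostly low. A list of 17 further mucin genes gave 13 separate entries apart from the one shared with MUC5B. Of these, 9 were higher and 2 lower in VCaP ERα, with a median log2 ratio of 0.42, while 1 was below -2 (against 6.56% of all entries) and 0 were above 2 (against 2.27%). Centring adds 0.59 to every ratio and so could only raise this median, to 1.01 beside 0.59 over all entries. After quantile normalization it was 0.23, beside -0.054 over all entries. Of the 13 entries, 6 reached 1 RPKM in either library, 2 in the VCaP-labelled library and 5 in VCaP ERα. Among the 6, 5 were higher and 1 lower (median 1.26). Most of them passed this minimum only in the library where they were higher. Their split is therefore no independent support for the 9 and 2 counted without it. Low entries were more often above 0 in VCaP ERα in general: of 349 short olfactory receptor entries, 11 were above 0 in the VCaP-labelled library and 106 in VCaP ERα. Whether the other mucins and the members differed in direction was not tested. MUCL1, a small mucin-like gene known from breast tissue, was the 1 entry below -2, with 22.6 RPKM in the VCaP-labelled library against 0.0970 RPKM in VCaP ERα (log2 ratio -4.43). CD164, a sialomucin found in many cell types, was high in both at 93.7 and 126 RPKM. OVGP1, the oviduct mucin, had 0.800 and 6.19 RPKM, just inside the limit at 2.00. MUC6, the gastric gland mucin that accompanies TFF2, was listed at 0 in the VCaP-labelled library and had 1.60 RPKM in VCaP ERα.

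Genes of oxidative protein folding, the machinery to which AGR2 belongs, did not share one direction. Of 20 genes, 9 were higher and 11 lower (16 and 4 after centring, 14 and 6 after quantile normalization), with a median log2 ratio of -0.17, which became 0.42 after centring and 0.39 after quantile normalization. Above 2 were 2 genes, against 2.27% of all entries, and below -2 was 1, against 6.56%. The genes above 2 were AGR3 and DNAJC10, a reductase of the same compartment, with 9.01 RPKM in the VCaP-labelled library against 42.9 RPKM in VCaP ERα (log2 ratio 2.13). TXNDC5, a disulphide isomerase, was the gene below -2, with 129 and 17.7 RPKM (-2.79). P4HB, the most abundant disulphide isomerase gene of the list, had 283 and 157 RPKM (-0.84), and PDIA4, another isomerase, had 133 and 90.1 RPKM (-0.56). The AGR family member TXNDC12 had 37.3 and 32.9 RPKM, a log2 ratio of -0.18 that turned to 0.41 relative to the median shift.

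Enzymes of mucin-type O-glycosylation, which attach and extend the sugars of mucins, included 7 genes far lower in VCaP ERα. Of 31 genes, 18 were lower and 12 higher, with a median log2 ratio of -0.56 that became 0.034 after centring and -0.20 after quantile normalization. Of the 21 genes with at least 1 RPKM in either library, 16 were lower and 5 higher, with a median of -1.38 against -0.50 over all such entries. This level was reached by 20 genes in the VCaP-labelled library and by 14 in VCaP ERα. Several of the lower genes passed it only in the library where they were higher, so the split depends partly on the minimum. Below -2 were 7 genes (22.6%, against 6.56% of all entries), and 0 were above 2. All 7 were among the 21 genes with at least 1 RPKM in either library, a level at which 12.2% of all entries were below -2. The number below -2 was 3 after centring on the median of expressed entries (3.35% of all entries) and 12 with a pseudocount of 0.1 (11.4% of all entries). The lowest were sialyltransferase genes: ST6GALNAC2 had 73.3 RPKM in the VCaP-labelled library against 0.575 RPKM in VCaP ERα (-5.56), and ST3GAL1, which sialylates the core sugars of mucins such as MUC1, had 38.2 and 1.81 RPKM (-3.80). GALNT1, a transferase that starts the chains, went the other way with 13.8 and 30.1 RPKM (1.07).

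A list of genes that mark or control mucous secretory cells had 16 entries, of which 11 were higher and 4 lower, with a median log2 ratio of 0.19 (0.78 after centring, 0.043 after quantile normalization and 1.19 with a pseudocount of 0.1). The median was -0.13 over the 5 entries that reached 1 RPKM in either library, and 1 entry was above 2 and 1 below -2, against 2.27% and 6.56% of all entries. XBP1, a transcription factor of secretory cells, had 623 RPKM in the VCaP-labelled library against 182 RPKM in VCaP ERα (-1.77). SPDEF, an ETS factor required for goblet cells and present in prostate and breast epithelium, had 87.0 and 192 RPKM (1.13). FOXA1, a pioneer factor for steroid receptors, had 139 and 127 RPKM (-0.13). CREB3L4, a membrane-bound factor known from prostate secretory cells, had 10.5 and 104 RPKM and was the gene above 2 (3.19). KLF4, a factor of differentiated epithelium, had 22.8 and 4.49 RPKM and was the gene below -2 (-2.11). Of the 16 entries, 8 were listed at 0 in the VCaP-labelled library, among them the goblet cell genes ATOH1, ERN2 and CLCA1, which stayed below 0.3 RPKM in VCaP ERα as well.

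Markers of gut epithelium, where trefoil factors and mucins are made together, were low in both libraries. The 6 intestinal markers (CDX1, CDX2, VIL1, KRT20, LGALS4 and CDH17) summed to 0.864 RPKM in the VCaP-labelled library against 2.94 RPKM in VCaP ERα, and 3 of them were listed at 0 in the former. The 6 gastric markers summed to 0.0535 and 1.60 RPKM, with 5 listed at 0 in the VCaP-labelled library, GKN1 and GKN2 among them. The 6 basal or squamous markers summed to 50.1 and 2.86 RPKM, most of the former from KRT17 (38.9 and 0.774 RPKM). KRT6A (7.41 and 0.227 RPKM) and TP63 (3.79 and 0.040 RPKM) were lower in VCaP ERα as well. These 3 genes were below -2 (50%, against 6.56% of all entries and 12.2% of those with at least 1 RPKM in either library). The other 3 were higher in VCaP ERα, with KRT5 at 0.0259 RPKM and KRT14 and DSG3 listed at 0 in the VCaP-labelled library. The part of other cell types in the levels of the 9 genes was not tested beyond these values.

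Genes of proteins that bind or shed the members, taken as 1 list, were mostly lower in VCaP ERα. The median log2 ratio was 0 over all entries and -0.59 over those expressed in both libraries. Of 13 genes, 9 were lower and 3 higher, with a median log2 ratio of -1.87 (-1.28 after centring and -1.19 after quantile normalization), and 5 were below -2 (38.5%, against 6.56% of all entries). All 5 were among the 10 genes with at least 1 RPKM in either library. Of all entries at that level 12.2% were below -2. The median of these 10 genes was -2.07, against -0.50 over all such entries. LGALS3, the galectin that binds MUC1, had 523 RPKM in the VCaP-labelled library against 3.15 RPKM in VCaP ERα (-6.98). The receptor genes ERBB3 (38.0 and 1.19 RPKM, -4.15) and ERBB2 (15.1 and 0.915 RPKM, -3.07), whose products associate with membrane mucins, were also below -2. EGFR, of the same receptor family, had 3.39 RPKM in VCaP ERα and was 2.26-fold higher there (0.81). LYPD3, which encodes a surface protein described as a receptor of AGR2, had 27.5 and 1.73 RPKM (-3.38), the opposite direction to AGR2 itself. CXCR4, a proposed receptor of TFF2, had 7.32 and 0.851 RPKM (-2.17). MET, the partner of MUC20, had 3.48 and 0.141 RPKM (-1.97), and CTNNB1, which binds the cytoplasmic tail of MUC1, had 59.6 and 34.5 RPKM (-0.77). DAG1, an adhesion gene also described as an AGR2 partner, had 62.6 and 23.0 RPKM (-1.41). The sheddase gene ADAM17 had 10.5 and 2.14 RPKM (-1.87). MMP14, also a sheddase gene, had a listed 0 and 0.325 RPKM (0.41), too low to be read as an opposite direction.

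**Figure D4:**
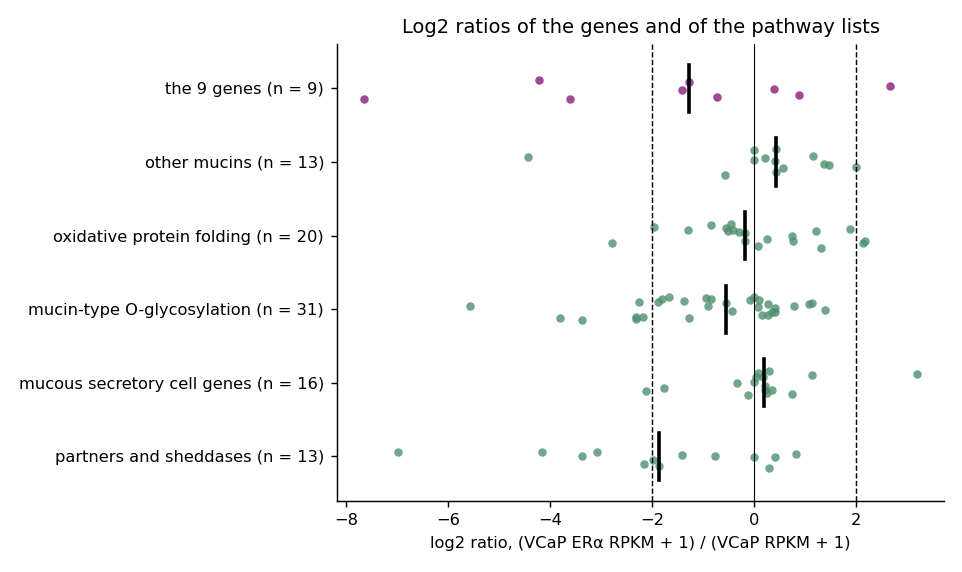
Log2 ratio of VCaP ERα over VCaP (1 RPKM added to each value) for the 9 genes (purple) and for the entries of 5 related gene lists (green), 1 point per entry, with black bars at the medians and dashed lines at 2 and -2. The medians run from -1.87 for the partners and sheddases to 0.42 for the other mucins. Their order holds for this setting. With at least 1 RPKM in either library, the 6 of the 9 genes that remained were lowest (-2.51). After quantile normalization the folding genes were highest (0.39).

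Entries with the most similar levels in both libraries were sought for the 4 genes with at least 10 RPKM in either, by the distance between log2(RPKM + 1) values. With 2 libraries this compares only 2 values per entry. Closest to TFF1 was the keratin gene KRT19 (distance 0.31), with 1625 RPKM in the VCaP-labelled library against 5.44 RPKM in VCaP ERα, followed by the protease gene CTSD (1.57) and LGALS3 (1.87). Closest to TFF3 were TRIM37 (0.26), APPBP2 (0.45) and APRT (0.49). AGR2 was closest to MALAT1 (0.55), NACA2 (0.72) and RPL19 (0.77), and MUC1 to PARP6, SCNN1A and SLC7A5 (0.055 to 0.10). The nearest entries of MUC1 lay closer than those of the other 3 genes, which ranked higher by level in both libraries. The distances were not adjusted for how many entries lie at each level, so this is not a trait of MUC1.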

How the data were processed

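RNA of VCaP and VCaP ERα cells (1 library each) was sequenced in strand-specific libraries after ribosomal RNA removal. The authors computed and deposited 1 RPKM value per entry, with no normalization between libraries stated. The submitters' processing notes name CASAVA 1.8 and the builds hg18 and mm10, and the human coordinates are those of the files (hg18). The aligner, the quantification tool and the use of strand in counting are not given in the sources used here. Entries are groups of known-gene identifiers with 1 or more symbols, and an entry can join neighbouring genes.

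Log2 ratios were computed from VCaP ERα over VCaP values with a pseudocount of 1, which understates differences of low entries, and 2 was used as the limit, as in the study's selection of higher genes, and here also -2 in the other direction. Nothing was filtered. With 1 library per condition no test was made. The members and gene lists were chosen with earlier results of these data known. The genes named are the members, ESR1, the 3 highest genes of each list and up to 2 past the limit in each direction, entries reaching within 100 kb of a member and the nearest 3 entries by level; further list and marker genes (such as MUC6, TXNDC12, LYPD3, EGFR and GATA3) were named after their values were seen. PIP was left out of the breast list because its symbol stands on an entry of BPNT1, and MUC19, MUC22 and ZG16 were not matched. A few list and neighbouring genes are not reported here. No human reference sequence was used here.

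The read depth is unknown. Among 349 olfactory receptor entries shorter than 1500 bp, the most frequent product of RPKM and span recurred in 5 of the 11 entries above 0 in VCaP and in 21 of 106 in VCaP ERα, too few to recover whole reads, so no counting interval or detection limit is given. The results were recomputed with 0.1 as the pseudocount, with entries under 1 RPKM in both libraries left out, and with median centring, quantile normalization or the sum over a symbol's entries. The scripts were tested on simulated data. The software was pandas 2.3.3 with numpy 2.4.6 under Python 3.11.15, and figures were drawn with matplotlib 3.10.9.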

Additional observations from a re-analysis of the deposited data

How the results depend on the processing

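None of the log2 ratios of the 9 genes changed sign under the 5 alternatives. Of these, the 1 RPKM minimum and the sum of a symbol's entries cannot move the ratio of any of the 9 genes. The pseudocount changes the size of a ratio but cannot change its sign, and centring adds 0.59 to each ratio. Only centring and quantile normalization could therefore have changed a sign. With a pseudocount of 0.1, where 16.3% of all entries were above 2 and 11.4% below -2, 3 of the 9 genes were above 2 and their median was -1.87. Keeping entries with at least 1 RPKM in either library left 6 of the 9 genes with a median of -2.51, and centring on the median of expressed entries gave a median of -0.69 for all 9. For the related lists, a pseudocount of 0.1 gave 2 other mucins below -2 and 5 above 2, 2 folding genes below -2, 12 O-glycosylation genes below -2 and 2 above 2, 2 secretory cell genes above 2, and 1 partner above 2. Centring (4.77% of all entries above 2 and 3.35% below -2) gave 3 O-glycosylation genes and 0 secretory cell genes below -2 and 2 other mucins above 2. Quantile normalization (3.84% of all entries in each direction) gave 0 secretory cell genes below -2, 1 other mucin above 2 and 4 folding genes above 2. Summing the entries of a symbol left each of these counts as it was. No paired analysis was possible because each condition has 1 library. The depth being unknown, values below 1 RPKM, among them all those of TFF2, MUC13 and MUC16, carry an unstated counting error.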

Other observations

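The mouse genes of the same names were looked up in the libraries of fibroblasts from E13.5 embryos, which were prepared from poly-A RNA at passages 2 to 3. Entries were matched for 8 of the 9 names, all but Muc16. Tff1, Tff2, Tff3, Agr2 and Muc20 were listed at 0 in both wild-type and NEAT1 KO fibroblasts. Muc1 had the highest value of the 8, with 0.257 RPKM in wild-type fibroblasts against 0.281 RPKM in KO, and Muc5b and Muc13 stayed below it in both libraries. Each fibroblast group had 1 library, so these values have no error.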
